A study of Mus musculus with 2 samples.

Results

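The miR-29 family was examined in the heart tissue of 2 mice, females of strain B6CASTF1/J (first-generation offspring of C57BL/6J crossed with CAST/EiJ) that were 25 days old. Its members are the 4 hairpins Mir29a, Mir29b-1, Mir29b-2 and Mir29c, taken by GENCODE M21 symbol and matched by Ensembl identifier among the 2202 hairpins counted. The animals are replicate 2 and replicate 1 of a single group in the labels, which number them separately but give both the same donor identifier, so the spread between them is read as that between animals on the word of the labels. No group stands against them, and what can be compared is the family's 2 gene clusters with each other and the 2 libraries with each other.

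MicroRNAs are short RNAs cut from folded hairpin precursors and pair with messenger RNAs mainly through the seed, bases 2 to 8 from the 5′ end. The miR-29 family is known for repressing genes of the extracellular matrix, among them collagens, elastin and fibrillin, and in heart it is known to be carried by fibroblasts as well as muscle cells and to fall next to an infarct scar. The genes stand in 2 clusters that are transcribed as separate primary RNAs, Mir29a with Mir29b-1 and Mir29b-2 with Mir29c. These tables count whole hairpins, so the arms of a hairpin (5p and 3p) cannot be separated in the values.

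The mature sequences, from RefSeq on GRCm38.p6 and shown with the seed in capitals, are printed because the family shares its seed in the 3p arms and differs in the rest. All 4 hairpins were matched in that table.
mmu-miR-29a-3p: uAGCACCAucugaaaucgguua
mmu-miR-29b-3p: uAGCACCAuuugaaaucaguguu
mmu-miR-29c-3p: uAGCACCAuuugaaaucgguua
mmu-miR-29a-5p: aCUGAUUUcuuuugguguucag
mmu-miR-29b-1-5p: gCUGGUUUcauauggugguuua
mmu-miR-29b-2-5p: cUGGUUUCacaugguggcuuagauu
mmu-miR-29c-5p: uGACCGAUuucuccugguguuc
Among 1679 mature mouse sequences in the table, the 3 members' 3p sequences were the ones with the seed AGCACCA (3 of 1679, 0.179%). Counting positions from 1 at the 5′ end, miR-29a-3p and miR-29c-3p differed at 1 position, C10U. From miR-29b-3p to miR-29c-3p the differences were A18G, G21U and U22A, and miR-29b-3p is 1 base longer (23 against 22 bases). The last 6 bases of miR-29b-3p, AGUGUU, are known from human cells as an element of nuclear import. Read on the strand of the mature RNA alone, that ending was present in 2 of the 1679 sequences (0.119%), the other being miR-92b-5p. The 4 5p arms have 4 different seeds.

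The hairpins that carry miR-29b are shown next, with their longest common stretch in capitals, because a read that lies within that stretch matches both.
Mir29b-1: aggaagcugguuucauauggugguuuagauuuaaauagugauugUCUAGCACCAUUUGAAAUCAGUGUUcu
Mir29b-2: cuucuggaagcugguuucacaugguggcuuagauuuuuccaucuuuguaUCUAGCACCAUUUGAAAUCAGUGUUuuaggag
The shared stretch is 25 bases long and holds the whole of miR-29b-3p, which occurs in 2 of the annotated hairpins. A read of miR-29b-3p alone therefore matches both loci, and the tables keep reads matching several places in a row of their own, outside the hairpin counts. The other mature sequences of the family, miR-29a-3p, miR-29c-3p and the 4 5p arms, each occur in 1 hairpin. Mir29a and Mir29c share no more than 14 bases in a row, and Mir29b-1 shares 22 bases with Mir29c. Outside the family the longest match of any member was 13 bases (Mir29b-2 with Mir6390).

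On mm10, Mir29a lies on chromosome 6 from 31062660 to 31062747 and Mir29b-1 from 31063023 to 31063093, both on the minus strand with 275 bases between them. Mir29a overlaps no other gene of GENCODE M21, and Mir29b-1 overlaps 2 bases at the 3′ end of the lincRNA Gm27019, in its exon. Mir29b-2 lies on chromosome 1 from 195037040 to 195037120 and Mir29c from 195037547 to 195037634, on the plus strand with 426 bases between them. Both lie in an exon of A330023F24Rik, a non-coding host transcript of the same strand. The opposite strand there holds an untranslated exon of Cd46, a complement regulator gene. Reads on the opposite strand numbered 0 at each of the 4 hairpins in both libraries, and counts taken without regard to strand were identical to those on the strand of the hairpin.

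**Figure D1:**
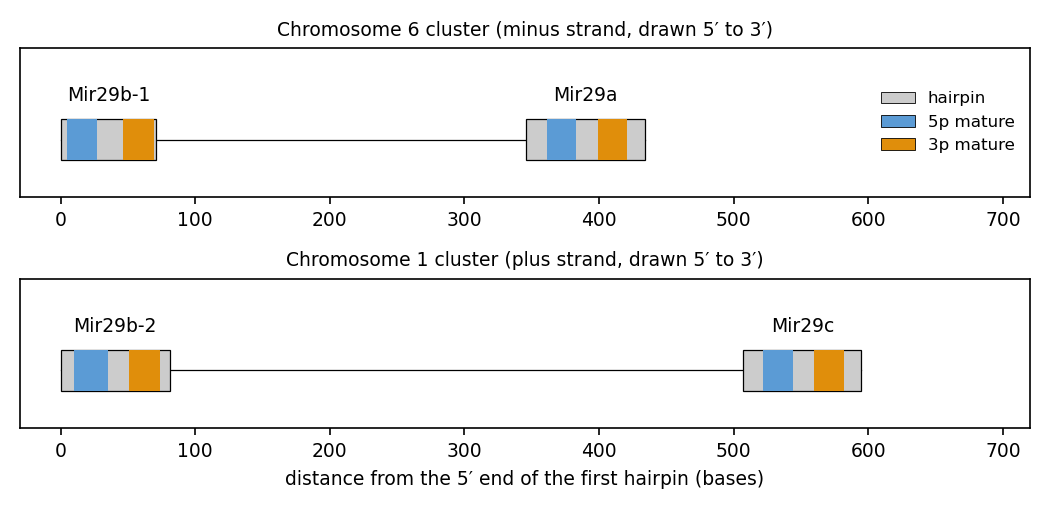
Map of the 2 miR-29 clusters, each drawn 5′ to 3′, with the distance in bases from the 5′ end of its first hairpin on the x axis and hairpins in grey, 5p arms in blue and 3p arms in orange. The Mir29b hairpin comes first in both clusters, 275 bases before Mir29a and 426 bases before Mir29c.

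The sum over all hairpins was 2661090 counts for replicate 2 and 2050498 for replicate 1. CPM, a hairpin's count scaled by that sum in the usual way, equals 0.376 for 1 count in replicate 2 and 0.488 in replicate 1. Reads matching several places made up 41.6% of the reads in replicate 2 and 38.5% in replicate 1. Of 5 hairpins that mark striated muscle, Mir208a had 15598 counts in replicate 2 and 3322 in replicate 1, Mir499 had 6167 and 5391, Mir208b 297 and 391, Mir1a-2 31 and 94, and Mir1a-1 1 and 3, in the same order. Hairpin counts leave out reads matching several places, so low counts such as those of Mir1a-1 and Mir1a-2 do not show that a microRNA was scarce.

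Nearly all counted reads of the family came from Mir29a. Mir29a had 8219 counts (3089 CPM, exact Poisson interval at 95% 3022 to 3156) in replicate 2 and 11008 counts (5368 CPM, 5269 to 5470) in replicate 1, with a mean of 4229 ± 1612 CPM (SD, n = 2). It ranked 34th in replicate 2 and 25th in replicate 1 among all hairpins, and the intervals of the 2 libraries do not overlap. Intervals cover counting error only, since reads that are PCR copies cannot be recognised in these tables.

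Mir29c, the other member whose 3p sequence occurs in 1 hairpin, was the second of the family. It had 412 counts (155 CPM, interval 140 to 171) in replicate 2 and 523 counts (255 CPM, 234 to 278) in replicate 1, a mean of 205 ± 70.9 CPM (SD, n = 2). Its ranks were 119 in replicate 2 and 102 in replicate 1, and its intervals in the libraries do not overlap either.

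The 2 hairpins of miR-29b had few counts. Mir29b-1 had 22 counts (8.27 CPM, interval 5.18 to 12.5) in replicate 2 and 47 counts (22.9 CPM, 16.8 to 30.5) in replicate 1. Mir29b-2 had 11 counts (4.13 CPM, 2.06 to 7.40) in replicate 2 and 33 counts (16.1 CPM, 11.1 to 22.6) in replicate 1. Their means were 15.6 ± 10.4 CPM for Mir29b-1 and 10.1 ± 8.46 CPM for Mir29b-2 (SD, n = 2 each). Mir29b-1 stood higher in both libraries. These SDs hold the shift between the libraries, so they do not measure the difference between the hairpins. All 4 members passed the count minimum of 10 in both libraries, Mir29b-2 by 1 count in replicate 2.

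The order Mir29a, Mir29c, Mir29b-1, Mir29b-2 held in both hearts, and the last step of it was within counting error. Mir29b-1 supplied 66.7% of the counts of both miR-29b loci in replicate 2 (95% Wilson interval from 49.6 to 80.2) and 58.8% in replicate 1 (from 47.8 to 68.9). Equal counts at both loci were not excluded by the exact binomial test on reads (two-sided p = 0.0801 in replicate 2 and 0.146 in replicate 1). These counts hold only the reads that could be placed at 1 locus, so they show neither how abundant miR-29b was nor which locus made it.

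**Figure D2:**
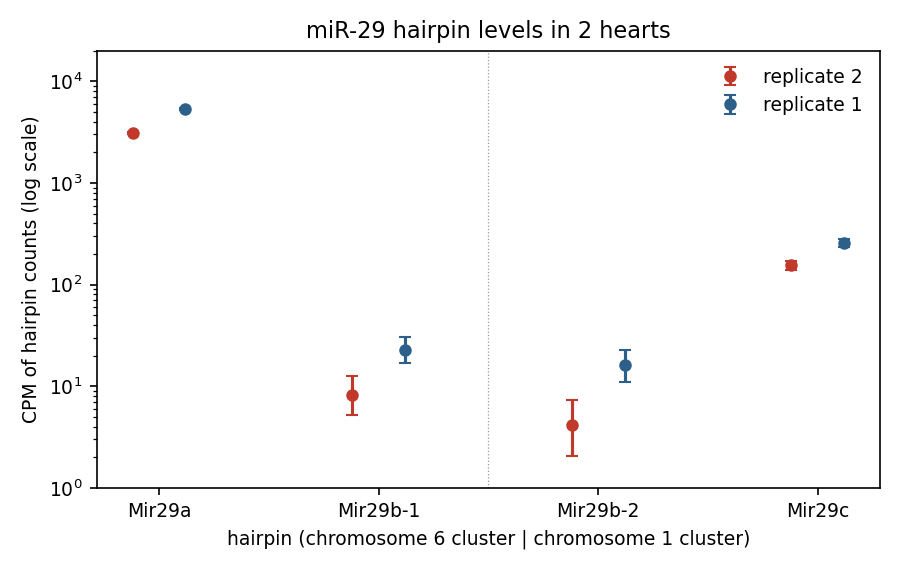
CPM of each miR-29 hairpin on a log axis, replicate 2 (red) left of replicate 1 (blue), with 95% exact Poisson intervals of the counts. Mir29a lies near 3089 and 5368 CPM, Mir29c near 155 and 255, and both Mir29b hairpins below 30, with every member lower in replicate 2.

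Summed over its members, the family made up 0.326% of hairpin counts in replicate 2 (Wilson 0.319 to 0.332) and 0.566% in replicate 1 (Wilson 0.556 to 0.577). Of these family counts, Mir29a made up 94.9% in replicate 2 and 94.8% in replicate 1. Mir29c made up 4.76% and 4.50% in the same order, and both miR-29b loci together 0.381% and 0.689%.

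Between the clusters, the one on chromosome 6 (Mir29a with Mir29b-1) held nearly all counts in both hearts. Its share of the family was 95.1% in replicate 2 (Wilson 94.6 to 95.6) and 95.2% in replicate 1 (Wilson 94.8 to 95.6), with a mean of 95.2% ± 0.0663 (SD, n = 2). It reached 3097 CPM in replicate 2 and 5391 CPM in replicate 1, against 159 CPM and 271 CPM for the cluster on chromosome 1 (Mir29b-2 with Mir29c). The excess of the chromosome 6 cluster was 19.5-fold in replicate 2 (exact interval 17.7 to 21.5) and 19.9-fold in replicate 1 (18.3 to 21.7). With 2 animals, an exact two-sided test over animals cannot give a p below 0.5.

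Judged by counting error alone, that share did not differ detectably between the libraries, although the family's own level did. The difference, replicate 2 minus replicate 1, was -0.0937 percentage points (Newcombe interval -0.697 to 0.499, Fisher's exact test on reads, p = 0.766, also 0.766 adjusted over 3 such tests). The comparison rests on Mir29a and Mir29c, which are both 88 bases long and whose mature arms occur in 1 hairpin each. Mir29a exceeded Mir29c 19.9-fold in replicate 2 (exact interval 18.1 to 22.1) and 21.05-fold in replicate 1 (19.3 to 23.0).

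Within the clusters, the makeup of the placed counts of the chromosome 1 pair differed between the libraries by counting error alone. Mir29c supplied 97.4% of the pair Mir29b-2 and Mir29c in replicate 2 (Wilson 95.4 to 98.5) and 94.1% in replicate 1 (Wilson 91.8 to 95.7). The difference of 3.33 percentage points (Newcombe interval 0.727 to 5.89) passed Fisher's exact test on reads (p = 0.0127, 0.0380 adjusted over 3 tests) and rests on 11 and 33 counts of Mir29b-2. Mir29a supplied 99.7% of its pair in replicate 2 (99.6 to 99.8) and 99.6% in replicate 1 (99.4 to 99.7), a difference of 0.158 points (-0.0145 to 0.325, Fisher's exact p = 0.0871, adjusted 0.131). These tests compare the reads of 2 libraries and not conditions, and they leave out spread beyond counting error. Of 302 pairs of tested hairpins within 10 kb on 1 strand, 111 differed at least as much as Mir29b-2 and Mir29c. That comparison used the log2 ratios of replicate 2 over replicate 1.

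**Figure D3:**
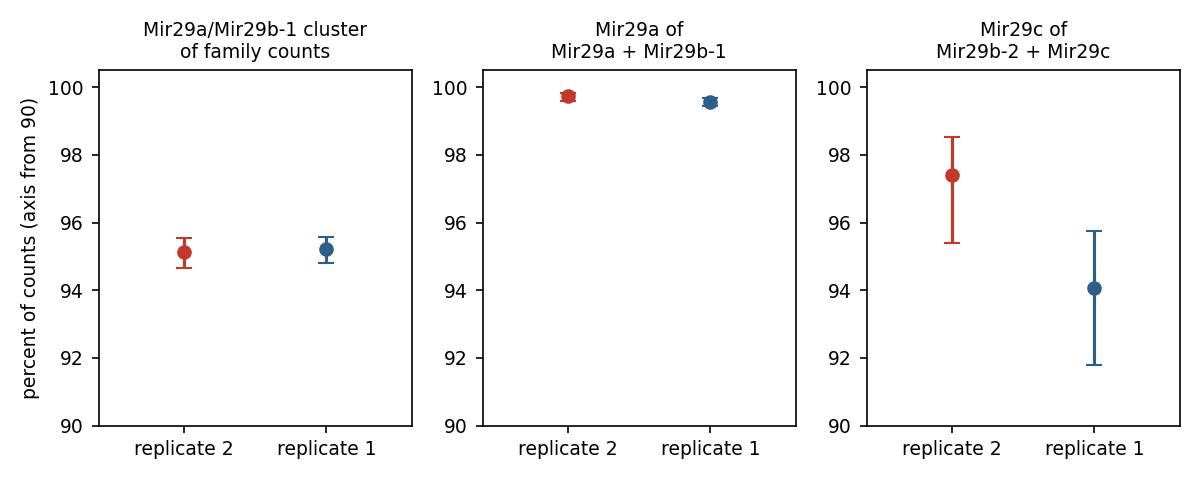
Shares of counts within the family and within each cluster in percent, replicate 2 (red) left of replicate 1 (blue), with 95% Wilson intervals, on an axis that starts at 90. The cluster share is 95.1% and 95.2%, and the intervals of Mir29c within its pair (97.4% and 94.1%) overlap only at their ends.

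The gap in counts inside the chromosome 6 pair was among the widest of neighbouring pairs in which both hairpins were tested. Pairs with a hairpin below the count minimum, where gaps can be wider, were not ranked. A read of miR-29b-3p alone matches both miR-29b loci and lies outside these counts. The folds below therefore compare reads placed at 1 locus and not levels of the microRNAs. Mir29a exceeded Mir29b-1 374-fold in replicate 2 (exact interval 247 to 596) and 234-fold in replicate 1 (176 to 319). Mir29c exceeded Mir29b-2 37.5-fold in replicate 2 (20.7 to 75.6) and 15.8-fold in replicate 1 (11.1 to 23.3).

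For scale, 302 pairs of tested hairpins lie within 10 kb of each other on 1 strand, with hairpins shared among pairs, and the median gap in mean CPM was 4.42-fold. The gap of 271-fold in mean CPM between Mir29a and Mir29b-1 was the fourth widest, and that of 20.3-fold between Mir29c and Mir29b-2 was reached by 65 of the 302. The 3 wider gaps were Mir127 over Mir665 (739-fold), Mir23a over Mir24-2 (459-fold) and Mir23b over Mir24-1 (414-fold), and the Mir24 hairpins, like those of miR-29b, carry a mature sequence that is found at another locus. In 25 pairs 1 hairpin has a mature sequence found in another hairpin, and their median gap was 23.4-fold. In 262 pairs neither has one, and their median gap was 4.10-fold. This split was made after the values were seen and is a description, and its part in the miR-29 gaps was not tested.

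**Figure D4:**
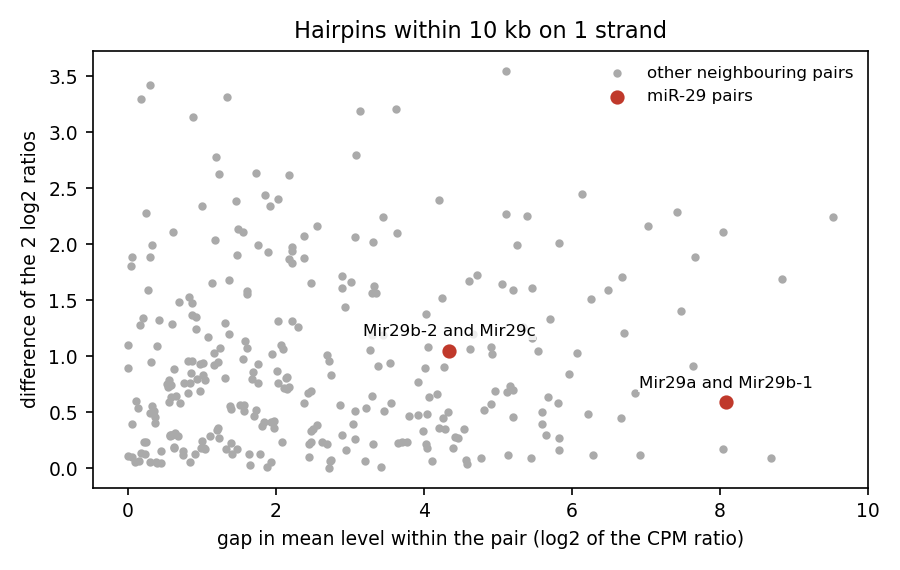
Each point is 1 of 302 pairs of hairpins within 10 kb on a strand, with the gap in mean level (log2 of the CPM ratio) on the x axis and the difference between the 2 log2 ratios of replicate 2 over replicate 1 on the y axis. The pair of Mir29a and Mir29b-1 (red) lies far to the right at a 271-fold gap and at 0.59 on the y axis. That of Mir29b-2 and Mir29c (red) lies at 1.05 on the y axis, above the median of 0.76 over all pairs.

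All 4 members were lower in replicate 2 than in replicate 1. The log2 ratio of replicate 2 over replicate 1, on CPM scaled by TMM factors (which align the bulk of hairpins between libraries) plus 1, was -0.57 for Mir29a (adjusted exact binomial p = 3.80e-161). It was -0.49 for Mir29c (adjusted exact binomial p = 6.98e-07), -1.15 for Mir29b-1 (adjusted p = 0.00137) and -1.53 for Mir29b-2 (adjusted p = 0.000527), by the same exact test adjusted over 326 hairpins. The counting intervals of these ratios without a pseudocount were -0.61 to -0.53 for Mir29a, -0.68 to -0.30 for Mir29c, -2.04 to -0.48 for Mir29b-1 and -2.86 to -0.71 for Mir29b-2.

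Many other hairpins passed the same test. It called 62.6% of the 326 hairpins in either direction and 26.4% as lower in replicate 2, against 4 of the 4 members lower. With a difference of at least 1.5-fold it called 19.3% as lower, against 2 of the 4 members, Mir29b-1 and Mir29b-2. With scaling by total count that call took 25.8% of all hairpins and 4 of the 4 members, since Mir29a stood at -0.80 and Mir29c at -0.72. Of the calls over all hairpins, 42.2% were lower in replicate 2, and with scaling by total count 60.6% were, a change that moved the median of all log2 ratios from 0.09 to -0.14. The members' median was -0.86, or -0.95 relative to the median of all hairpins, and with total count it was -1.08, or -0.94 relative to theirs.

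Set beside the other hairpins, the ratios of the abundant members were matched by many. Of the 326 tested, 49.4% had a ratio as far from 0, in either direction, as that of Mir29a, and 55.5% as far as that of Mir29c. For Mir29b-1 and Mir29b-2 these shares were 21.8% and 12.3%. A ratio as low was found in 24.2% for Mir29a, 26.4% for Mir29c, 11.3% for Mir29b-1 and 6.75% for Mir29b-2. The biological coefficient of variation, the spread beyond counting error estimated over all hairpins, was 0.467, at which the SD of a log2 ratio of 2 libraries is 0.95. The ratios of Mir29a and Mir29c lie within that SD, and those of both miR-29b loci outside it, except that Mir29b-1 stood at -0.91, inside it, with a pseudocount of 5 CPM. That SD leaves out counting error. The counting intervals of Mir29b-1 (-2.04 to -0.48) and Mir29b-2 (-2.86 to -0.71) reach inside it, so these loci are not set apart from the spread. Tests on reads leave out the spread beyond counting error, so their small p-values do not show a difference between animals.

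**Figure D5:**
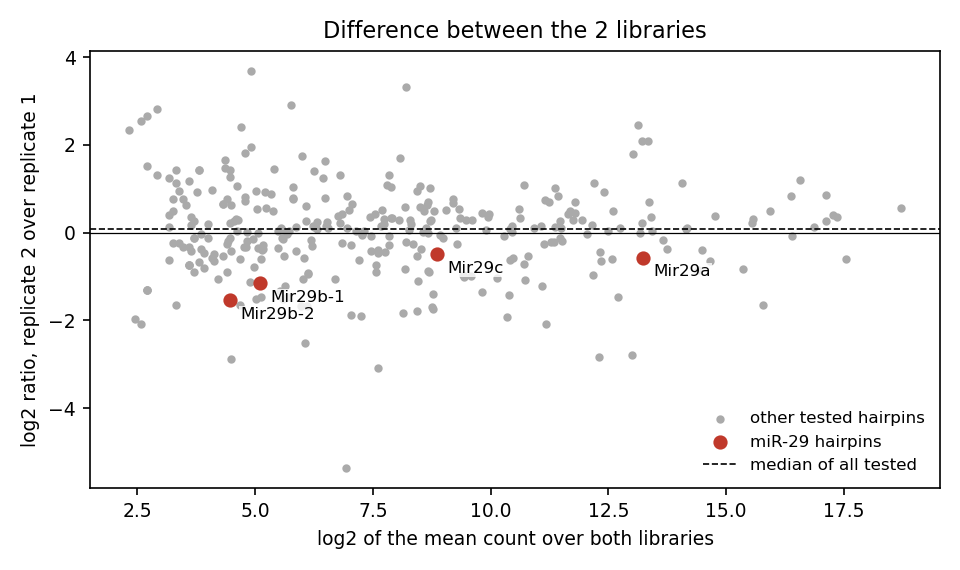
Log2 ratio of replicate 2 over replicate 1 (y axis) against the log2 of the mean count (x axis) for 326 tested hairpins in grey and the 4 miR-29 hairpins in red, with the median of all as a dashed line at 0.09. The 4 members lie between -0.49 and -1.53, below the median and inside the cloud of other hairpins.

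Both mates of each cluster were lower in replicate 2, but so were all 4 members, which does not set mates apart. Across the clusters the ratios lay closer than between mates. They were -0.57 for Mir29a and -0.49 for Mir29c, and -1.15 for Mir29b-1 and -1.53 for Mir29b-2. The ratios of Mir29a and Mir29b-1 differed by 0.59 on the log2 scale, with counting intervals that overlap. Those of Mir29b-2 and Mir29c differed by 1.05, with counting intervals that do not overlap. The median difference over the 302 neighbouring pairs was 0.76, between these values. A difference at least as large was seen in 176 and 111 of the 302 pairs. Of all these pairs, 168 had both ratios on the same side of 0.

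Markers of the cell types in heart also differed between the libraries. Mir126a, the endothelial marker, took 6.10% of all counts in replicate 2 and 10.8% in replicate 1. The 5 fibroblast hairpins held 0.242% and 0.624% in the same order, with Mir199a-1 at 0 in both libraries, and the 3 erythroid hairpins 0.0869% and 0.178%. The 2 smooth muscle hairpins held 4.83% and 2.94%, the 5 striated muscle hairpins 0.830% and 0.449%, and the 3 leukocyte hairpins that matched of 4 listed 0.436% and 0.445%. The leukocyte hairpin that did not match was listed as Mir142a but is annotated as Mir142, so the sums and calls given here leave it out. Mir142 had 765 counts in replicate 2 and 406 in replicate 1 (log2 ratio 0.76, called higher by the exact binomial test). None of these sums holds reads that match several places. In the exact binomial test, which called 36.2% of all hairpins higher and 26.4% lower in replicate 2, lower calls numbered 1 of 1 endothelial, 1 of 3 tested fibroblast, 3 of 3 erythroid, 2 of 4 tested striated muscle, 1 of 3 leukocyte and 0 of 2 smooth muscle hairpins. Higher calls numbered 0, 1, 0, 1, 2 and 2 in the same order of cell types. Within striated muscle, Mir208a was higher (log2 ratio 2.08), while Mir208b (-0.54) and Mir1a-2 (-1.67) were lower. The fibroblast difference lay mostly in Mir214, at 508 CPM in replicate 2 and 4251 CPM in replicate 1. Mir21a stood at 1903 and 1974 CPM in the same order and was called higher with TMM scaling, and Mir199b was not called. The part of these differences in the miR-29 ratios was not tested, and in bulk tissue fewer cells of a type and less RNA per cell cannot be told apart.

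Among other microRNAs linked to cardiac fibroblasts or matrix, Mir214 was lower in replicate 2 under every scaling tried, and the direction of Mir21a and Mir30c-2 turned with the scaling. Of 10 such hairpins, 5 were tested, and the rest fell short of the count minimum in counts that leave out reads matching several places. Among those tested, 3 were called higher and 1 lower in replicate 2 with TMM scaling, against 0 higher and 2 lower with scaling by total count. Over all hairpins these calls took 36.2% and 26.4% with TMM scaling and 23.3% and 35.9% with scaling by total count. Mir214, a microRNA of activated fibroblasts, had 1353 counts in replicate 2 and 8717 in replicate 1 (log2 ratio -2.83). Mir21a, which is known to rise in fibrotic hearts, had 5064 and 4048 counts (log2 ratio 0.18, or -0.05 by total count), and Mir30c-2 had 2110 and 1778 (log2 ratio 0.10, or -0.13 by total count). The median log2 ratio of the 5 was 0.10, or -0.13 by total count, against 0.09 and -0.14 over all hairpins. By mean level, Mir29a (4229 CPM) stood above Mir214 (2380 ± 2647 CPM) and Mir21a (1939 ± 50.3 CPM, SD, n = 2 each). Mir214 varied widely between the libraries. Mir29a stood above Mir214 in each, at 3089 against 508 CPM in replicate 2 and 5368 against 4251 CPM in replicate 1.

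The hairpins nearest to each member in level over the 2 libraries were found by Euclidean distance of log2(CPM + 1). For Mir29a they were Mir744 (distance 0.40), Mirlet7f-2 (0.52) and Mir93 (0.55), of which Mir744 had 3654 CPM in replicate 2 and 4305 CPM in replicate 1. For Mir29c they were Mir378d, Mir330 and Mir1306 (0.32, 0.32 and 0.41). For Mir29b-1 they were mmu-mir-3535, Mir5121 and Mir7688 (0.22, 0.28 and 0.29), and for Mir29b-2 Mir5113, Mir6516 and Mir182 (0.25, 0.39 and 0.46). With 2 libraries this measure ranks likeness in level and says little of a shared pattern.

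Sharing a mature sequence with another locus went with low counts at the miR-29b loci, but not at every such hairpin. Among hairpins matched to the RefSeq table, 114 share one, of which 36 reached 10 counts in both libraries (31.6%), against 223 of 904 hairpins without one (24.7%). Counts of 0 in both libraries, which go the other way, were found at 61 of the 114 and at 401 of the 904. The median of their mean CPM among tested hairpins was 65.7 CPM with a shared mature sequence and 63.0 CPM without. Hairpins with few or no counts were not tested, so these medians leave them out. Together the 114 held 1.03% of all counts in replicate 2 and 1.49% in replicate 1, against 71.8% and 76.0% for the 904. The remaining counts lie in hairpins of the 2202 that were not matched, whose sharing was not assessed. Both miR-29b loci lie below these medians, at 15.6 and 10.1 CPM.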

How the data were processed

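Short RNA was sequenced from 2 hearts of 1 group. The values deposited by the authors are raw read counts for each annotated hairpin, on mm10 with GENCODE M21, per the file headers of the notes beside them. The aligner and counter are not given in the sources used here. Counts on the hairpin's own strand were taken, the larger of the stranded sums. Reads in rows without a hairpin (58.8% in replicate 2 and 59.0% in replicate 1) entered the total in 1 alternative only.

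CPM used hairpin sums. Hairpins reaching 10 counts in either library (326) were compared by an exact two-sided binomial test against the ratio of TMM-scaled sizes (edgeR 4.0.16, R 4.3.3), with Benjamini-Hochberg adjustment and a threshold of 0.05. A design with 1 group leaves edgeR's quasi-likelihood test no contrast. Shares were compared with Fisher's exact test (scipy 1.17.1). Alternatives included DESeq2 1.42.0 size factors. The members, lists and rules were chosen with earlier results of these data known. Named hairpins are the members, the 3 nearest in level to each, a list of 10 fibroblast or matrix hairpins and cell type markers. The widest neighbouring pairs were named after their values were seen.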

Additional observations from a re-analysis of the deposited data

Results flagged for a closer look

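Reads matching several places, which lie outside the hairpin counts, numbered 2686901 in replicate 2 and 1925044 in replicate 1, or 1.01 and 0.939 per hairpin count. They appear here because they exceed the 3 counts that a count of 0 allows, which does not show that they are unusual. A read of miR-29b-3p alone would match Mir29b-1 and Mir29b-2, and how many of these reads are miR-29b-3p was not tested.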

How the results depend on the processing

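Each of the 4 log2 ratios stayed below 0 and past the test in every alternative in which its hairpin was tested (8 for Mir29a and Mir29c, 7 for the miR-29b loci, which the minimum of 50 counts removed). They ranged from -0.80 to -0.57 for Mir29a, -0.72 to -0.48 for Mir29c, -1.37 to -0.91 for Mir29b-1 and -1.77 to -1.07 for Mir29b-2. The count of called hairpins lay between 165 and 193 under other scalings, minimums and columns, against 204. Levels moved by construction with the total. The family share was 0.632% in the column without regard to strand, 0.183% of every row of the table and 1.39% without the 10 highest hairpins. In the same order Mir29a stood at 5991, 1736 and 13173 CPM and Mir29c at 290.3, 84.2 and 640.1 CPM, and without the 10 highest hairpins Mir29b-1 stood at 47.5 and Mir29b-2 at 30.4 CPM. From Mir29a and Mir29c alone, the chromosome 6 share was 95.3%. The other alternatives for levels and shares moved them by less than 1 SD, which for leaving out a replicate is fixed by n = 2. Without replicate 1, Mir29a, Mir29c, Mir29b-1 and Mir29b-2 stood at 3089, 155, 8.27 and 4.13 CPM, and without replicate 2 at 5368, 255, 22.9 and 16.1 CPM. Mir29b-1 thus moved by over 1.5 times without replicate 1, and Mir29b-2 without either. The count of members called lower with at least 1.5-fold was 4 with total count, with no filter beyond 1 count and without the 10 highest hairpins, 3 with DESeq2 size factors and in the column without regard to strand, and 2 otherwise. No paired analysis was possible because there is 1 group. Counting error was widest at the miR-29b loci, with 11 to 47 counts.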
